A study of Homo sapiens with 61 samples.

Results

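Messenger RNA was compared between 5 cultures of human neurons carrying a guide RNA (gRNA) against ATF2 and 5 cultures carrying a scrambled Control gRNA, none of which had received the drug used elsewhere in the study. The question was which genes were higher and which were lower in unstressed neurons when ATF2 was reduced. The 10 libraries were chosen by their labels, not by any measured value, from 61 in the series and 29 in the same experiment. Of 58440 gene identifiers in the count table, 20759 had enough reads to be tested.

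All of these cells were WTC11 (a widely used human line of induced pluripotent stem cells) turned into neurons (i3Neurons) by driving the transcription factor NGN2. They expressed the machinery of CRISPR interference (CRISPRi), in which a catalytically dead Cas9 is brought by the gRNA to the start of a gene and lowers its transcription. The lentivirus and the CRISPRi machinery were therefore present in the Control gRNA cultures too. Both untreated groups received DMSO vehicle at day 14 and were harvested 16 hours later, while the treated groups received vincristine at 5 nM, which breaks down microtubules. Untreated JUN gRNA (5 libraries), vincristine-treated ATF2 gRNA (4) and Control gRNA (5), and wild-type neurons (WT) of a separate experiment with and without vincristine (4 each) are used below for reference. The design text lists transduction before differentiation, so effects on differentiating cells and on the finished neurons cannot be told apart. The design text gives day 14 and the labels a range of 10 to 14 days. The guide sequences and the number of guides per gene are not given in the sources used here. Nothing in the labels says that replicates came from separate differentiations, so p-values measure the spread between these cultures.

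ATF2 belongs to the ATF/CREB family of leucine zipper transcription factors. It binds cyclic AMP response elements and related sites as a homodimer or with partners such as JUN, and it gains activity when the stress kinases JNK and p38 phosphorylate it. In neurons the same kinases relay axon damage from the kinase DLK (gene MAP3K12) to the nucleus, where JUN and ATF2 are among their known substrates. Dual-specificity phosphatases (DUSPs) remove the activating phosphates from these kinases, and many of them are themselves transcribed when the pathway is active.

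Total counts ran from 38925807 to 70854504 per library in the 10 libraries. None of the 20 pairs of replicates differed by as little as sampling noise. A principal component holding 74.3% of the variance separated the groups, and the next, with 7.60%, set ATF2 gRNA replicate 1 and Control gRNA replicate 2 apart from the other 8. These were the shallowest library of each group. Leaving both out gave 7864 called genes in place of 8281.

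The cells expressed the general neuronal markers, with all 15 of the list tested and a summed level of 18191 to 18829 CPM (the count of a gene scaled to library size) in the Control gRNA libraries and 16024 to 16337 in the ATF2 gRNA libraries. Transcripts of the pluripotency genes NANOG, TDGF1 and ZFP42 were below the filter on low counts. The labels describe the neurons as cortical and driven by NGN2. Of the forebrain cortical genes, EMX1 had at most 3 counts in any Control gRNA library, whereas CUX2 stood at a mean of 36.4 CPM with Control gRNA, both picked with their values known. Markers of peripheral neurons summed to 580 to 605 CPM with Control gRNA and to 294 to 324 CPM with ATF2 gRNA, most of it POU4F1, a sensory neuron transcription factor, at 481 ± 8.29 against 222 ± 7.29 CPM (mean ± SD, n = 5 each). Of the 8 tested markers of peripheral neurons, 6 were lower and 0 higher with ATF2 gRNA, against 20.2% and 19.7% of all genes. The part that this shift had in the other differences was not tested, and in bulk RNA fewer cells of a type and less RNA per cell cannot be told apart.

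ATF2 itself (ENSG00000115966.16, GRCh38 chromosome 2, 175072250 to 175168382, minus strand) stood at 111, 114, 158, 130.3 and 129.8 CPM in the 5 Control gRNA libraries and at 0.408, 0.877, 0.531, 0.707 and 0.106 CPM in the 5 ATF2 gRNA libraries. The groups did not overlap, and the mean with ATF2 gRNA was 0.409% of that with Control gRNA. On the log2 scale the gene fell by 7.88 (SE 0.20), where SE is the standard error, with an adjusted p of 3.05e-21 in edgeR's quasi-likelihood test with Benjamini-Hochberg adjustment. With JUN gRNA the ATF2 transcript differed from Control gRNA by 0.25 on the log2 scale (adjusted p = 0.218). CPM here are scaled by the effective library size, log2 fold changes below are ATF2 gRNA over Control gRNA with their SE, and a gene is called when its adjusted p over all 20759 genes is under 0.05.

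The gene next to ATF2 was also lower. ATP5MC3 (ENSG00000154518.9, chromosome 2, 175176258 to 175184607), which encodes a subunit of the mitochondrial ATP synthase, starts 16.2 kb upstream of the ATF2 start. It stood at 193, 206, 191, 196 and 203 CPM with Control gRNA and at 74.9, 70.5, 71.6, 71.0 and 69.1 CPM with ATF2 gRNA, a log2 fold change of -1.47 ± 0.040 (adjusted p = 1.13e-31). Its groups did not overlap, and with JUN gRNA it differed from Control gRNA by -0.051 (adjusted p = 0.527). The antisense gene AC096649.1, which overlaps the start of ATF2, had 0 to 13 counts per library with Control gRNA and 0 in every ATF2 gRNA library, and reads of overlapping genes may not be separable by the counting used. Of the 18 genes tested within 1 Mb of ATF2, 5 were called lower and 4 higher, against 20.2% and 19.7% of all genes tested. Further away, CHN1, a GTPase-activating protein of axon growth, changed by -0.52 ± 0.055, and GPR155 by -0.71 ± 0.047, while SCRN3, WIPF1 and CIR1 were not called. The HOXD genes at the far edge of this window, HOXD8 and HOXD9, changed by 1.55 ± 0.23 and 1.49 ± 0.24. Whether the guide acted on ATP5MC3 through its position next to ATF2 was not tested.

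**Figure D1:**
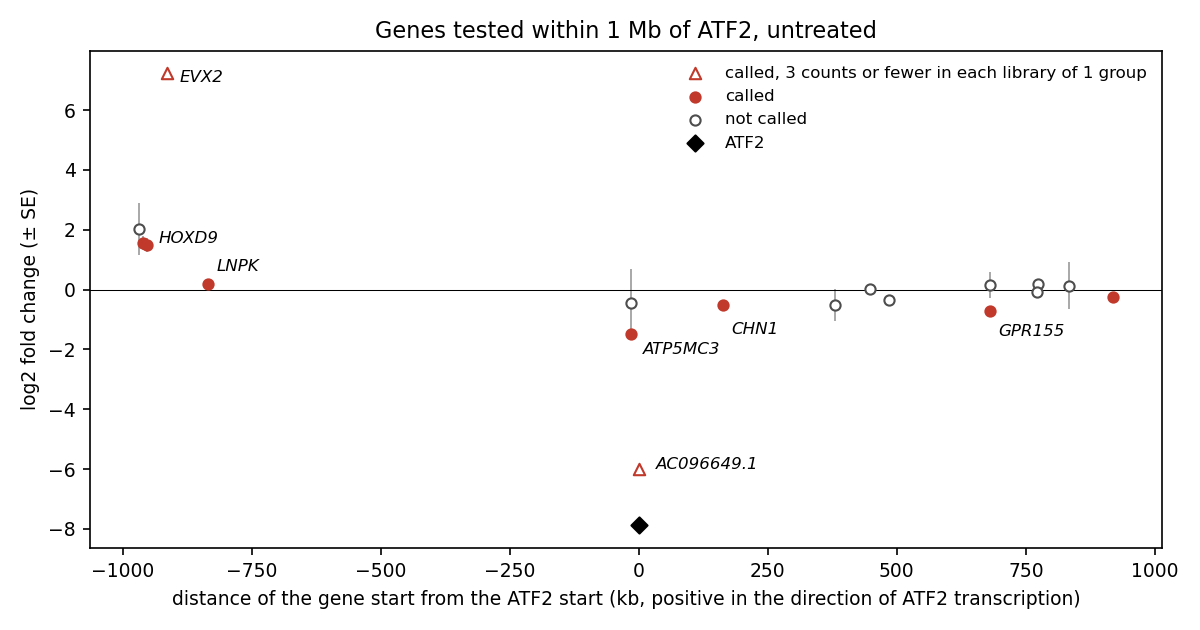
Log2 fold change (vertical, with SE) of each gene tested within 1 Mb of ATF2 against the distance of its start from the ATF2 start in kb (horizontal), untreated ATF2 gRNA against Control gRNA. Filled points are called, open circles are not, and open triangles mark EVX2 and AC096649.1, which had at most 3 counts in each library of 1 group, so that their fitted values set no size. ATP5MC3, 16.2 kb upstream, lies at -1.47.

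Across the transcriptome, 8281 of the 20759 genes tested were called (39.9%). ATF2 gRNA libraries were higher for 4090 of them (19.7%) and lower for 4191 (20.2%). Counts for the gene lists below are to be read against these 2 shares. Most differences were small, with a median absolute log2 fold change of 0.44 among called genes. Those of at least 2-fold were more often higher than lower, at 1137 (5.48%) and 641 (3.09%), and at 16-fold or more there were 147 and 37. The 5 and 5 libraries did not overlap for 6109 genes (29.4% of those tested). The median over all genes was 0.017.

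The AP-1, ATF and CREB factors, the family from which ATF2 takes its partners, were called in both directions. Of 29 members tested, 9 were lower, ATF2 included, and 12 higher, against 20.2% and 19.7% of all genes. JUN, the best known partner of ATF2 (ENSG00000177606.6, chromosome 1, 58780788 to 58784327), stood at 83.5, 93.9, 85.8, 97.8 and 81.7 CPM with Control gRNA and at 19.6, 22.1, 18.2, 22.5 and 22.5 CPM with ATF2 gRNA. Every ATF2 gRNA library was below every Control gRNA library, and the log2 fold change was -2.08 ± 0.10 (adjusted p = 4.18e-16). CREB5, the factor most like ATF2 and ATF7 in sequence, stood at 27.4, 24.6, 32.0, 27.5 and 30.4 CPM with Control gRNA and at 4.99, 5.18, 5.12, 5.51 and 6.42 CPM with ATF2 gRNA, again without overlap (-2.38 ± 0.10, adjusted p = 5.16e-21). MAFF, a small MAF protein that lacks an activation domain, changed by -2.40 ± 0.20, from 2.73 ± 0.358 to 0.505 ± 0.200 CPM (mean ± SD, n = 5). Smaller falls were called for JUND (-0.52), CREB3L2 (-0.71), ATF7 (-0.33), JDP2 (-0.35) and ATF4 (-0.14). ATF7 is the closest paralog of ATF2, and it did not rise.

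Among the members that rose, ATF5 stood at 22.9, 25.0, 20.1, 21.3 and 20.1 CPM with Control gRNA and at 150.5, 146, 138, 160.0 and 154 CPM with ATF2 gRNA (2.78 ± 0.063, adjusted p = 7.99e-34). DDIT3 (CHOP), a death-promoting factor of the integrated stress response, stood at 19.5, 19.0, 19.5, 19.4 and 20.2 CPM with Control gRNA and at 130.4, 113, 106, 107 and 108 CPM with ATF2 gRNA (2.53 ± 0.069). Neither gene's groups overlapped. FOS rose by 1.44 ± 0.18, JUNB by 1.40 ± 0.11 and FOSL2 by 0.78. BATF3 was called at 2.92 ± 0.99, but its mean was 0.418 CPM with ATF2 gRNA and its groups overlapped. ATF3, the injury-induced factor often placed downstream of JUN and ATF2, differed little, from 22.2 ± 1.09 to 25.4 ± 2.42 CPM (0.20 ± 0.070, adjusted p = 0.0211), with overlapping groups. MAFG, MAFK, NFIL3, CREM and CREB3 were not called, with log2 fold changes from -0.076 for NFIL3 to 0.20 for CREM.

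The phosphatases that switch off MAP kinases were also called in both directions. DUSP16, which acts mainly on JNK, stood at 62.3, 64.3, 59.5, 57.7 and 64.3 CPM with Control gRNA and at 9.46, 8.54, 9.19, 8.06 and 9.88 CPM with ATF2 gRNA (-2.77 ± 0.077, adjusted p = 1.18e-27). DUSP8, another phosphatase of JNK and p38, stood at 125, 139, 120.3, 137 and 130.3 CPM with Control gRNA and at 27.2, 28.0, 29.7, 31.3 and 29.2 CPM with ATF2 gRNA (-2.16 ± 0.076, adjusted p = 9.18e-21). Both genes were lower in every ATF2 gRNA library than in any Control gRNA library. DUSP1 fell by less, -0.44 ± 0.072. DUSP6, which acts on ERK, rose from 77.4 ± 4.39 to 221 ± 11.5 CPM (1.52 ± 0.050), DUSP5, a nuclear phosphatase of ERK, rose from 30.3 ± 0.399 to 81.1 ± 5.02 CPM (1.42 ± 0.062), and DUSP2, DUSP7, DUSP10 and DUSP4 were also called higher. Of the 10 phosphatases 3 were lower and 6 higher, against 20.2% and 19.7% of all genes, and DUSP9 was not called (1.45).

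The promoters of 4 genes are shown, picked because each holds a site of the kind that ATF2 is known to bind. They do not stand for the other genes that fell, such as CREB5 and DUSP16, whose promoters are not shown. The motifs searched on both strands were TGACGTCA, the full cyclic AMP response element, which is its own reverse complement; TGACATCA, the variant known from the JUN promoter; TGACTCA, the AP-1 site; and GCGTGGGCG, the site of EGR factors. Each line gives the 250 bases before the gene start from RefSeq on GRCh38.p14, 5′ to 3′ along the gene, with TGACGTCA or TGACATCA in capitals. The windows are chr1:58784048-58784297 (minus strand) for JUN, chr11:1572272-1572521 (minus) for DUSP8, chr22:38201744-38201993 (plus) for MAFF and chr3:187670395-187670644 (minus) for SST, a gene described further on that rose.
JUN: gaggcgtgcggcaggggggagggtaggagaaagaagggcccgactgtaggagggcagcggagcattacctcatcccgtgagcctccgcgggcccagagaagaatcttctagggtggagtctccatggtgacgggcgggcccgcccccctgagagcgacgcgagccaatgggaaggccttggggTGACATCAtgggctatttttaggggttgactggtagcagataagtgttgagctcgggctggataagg
DUSP8: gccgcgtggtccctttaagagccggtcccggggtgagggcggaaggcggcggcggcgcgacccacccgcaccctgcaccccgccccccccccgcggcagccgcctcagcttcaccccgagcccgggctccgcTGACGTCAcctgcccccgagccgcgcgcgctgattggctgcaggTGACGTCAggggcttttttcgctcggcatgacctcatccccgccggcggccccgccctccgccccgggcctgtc
MAFF: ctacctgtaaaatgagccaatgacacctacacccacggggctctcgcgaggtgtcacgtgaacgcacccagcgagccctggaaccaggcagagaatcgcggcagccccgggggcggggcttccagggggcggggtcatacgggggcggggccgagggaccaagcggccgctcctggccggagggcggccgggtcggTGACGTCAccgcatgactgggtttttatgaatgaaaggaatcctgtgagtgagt
SST: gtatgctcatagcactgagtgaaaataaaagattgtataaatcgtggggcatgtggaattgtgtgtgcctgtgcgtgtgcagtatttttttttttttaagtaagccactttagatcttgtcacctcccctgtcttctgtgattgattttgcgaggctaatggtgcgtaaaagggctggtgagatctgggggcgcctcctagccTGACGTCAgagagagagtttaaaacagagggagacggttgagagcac
The JUN site begins 67 bases before the start, the MAFF site 54, the SST site 47, and the DUSP8 promoter holds a pair, at 118 and 74 bases. Distances are from the RefSeq start, which can differ from the gene coordinates given above, and for JUN it lies inside that interval. A match is a run of letters and says nothing on binding.

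Over all genes, TGACGTCA and TGACATCA were a little more frequent among the genes that were lower. A window of 300 bases (250 before and 50 after the start) was at hand for 13231 of the tested genes, and 3.11% of these windows held TGACGTCA. The share was 3.80% among genes called lower, 2.58% among genes called higher, 4.65% (19 of 409) among those lower by at least 2-fold and 1.99% (14 of 703) among those higher by at least 2-fold. TGACATCA was in 1.59% of all windows, 3.42% of the 2-fold lower and 1.85% of the 2-fold higher ones. TGACTCA, at 3.11% of all windows, was in 2.75% of those called lower and 3.24% of those called higher. It was in 4.65% of the 2-fold lower and 4.13% of the 2-fold higher ones. GCGTGGGCG was less frequent among the lower genes, at 1.32% of all windows, 0.244% (1 of 409) of the 2-fold lower and 2.13% (15 of 703) of the 2-fold higher ones. These shares are descriptions without a test. Genes of both directions had such windows, and those named here are examples. Windows with TGACGTCA belonged, beside DUSP8 and MAFF, to the lower genes CLDN6, KCNF1 and SLC18A2. Beside SST, they also belonged to the higher genes VGF, PCSK1 and PDE4A. Windows with TGACATCA belonged, beside JUN, to the lower genes SFRP4 and TLX3, and also to the higher genes ATF3, DUSP10 and KCNN2.

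Genes of the JNK and p38 kinase cascade above ATF2 were more often lower than higher, by small amounts. Of 24 genes 12 were called lower, 4 higher (16.7%) and 8 not at all, against 20.2% lower and 19.7% higher among all genes. MAPK11 (p38 beta) changed from 19.3 ± 2.57 to 9.43 ± 0.945 CPM (-1.04 ± 0.10), the largest fall of the list. The p38 activator MAP2K3 fell by 0.70 (SE 0.14), while MAP2K6, the other p38 activator, rose by 0.59 ± 0.082. Among the JNK genes, MAPK10 (JNK3, the form enriched in neurons) changed by -0.47 ± 0.043 and MAPK8 (JNK1) by -0.40 ± 0.037, and MAPK9 (JNK2) was not called (-0.075). MAP3K12, which encodes DLK, changed from 119 ± 6.96 to 88.3 ± 4.41 CPM (-0.43 ± 0.049, adjusted p = 3.64e-10). Its relative MAP3K13 (LZK) was not called (0.12 ± 0.065, adjusted p = 0.133).

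**Figure D2:**
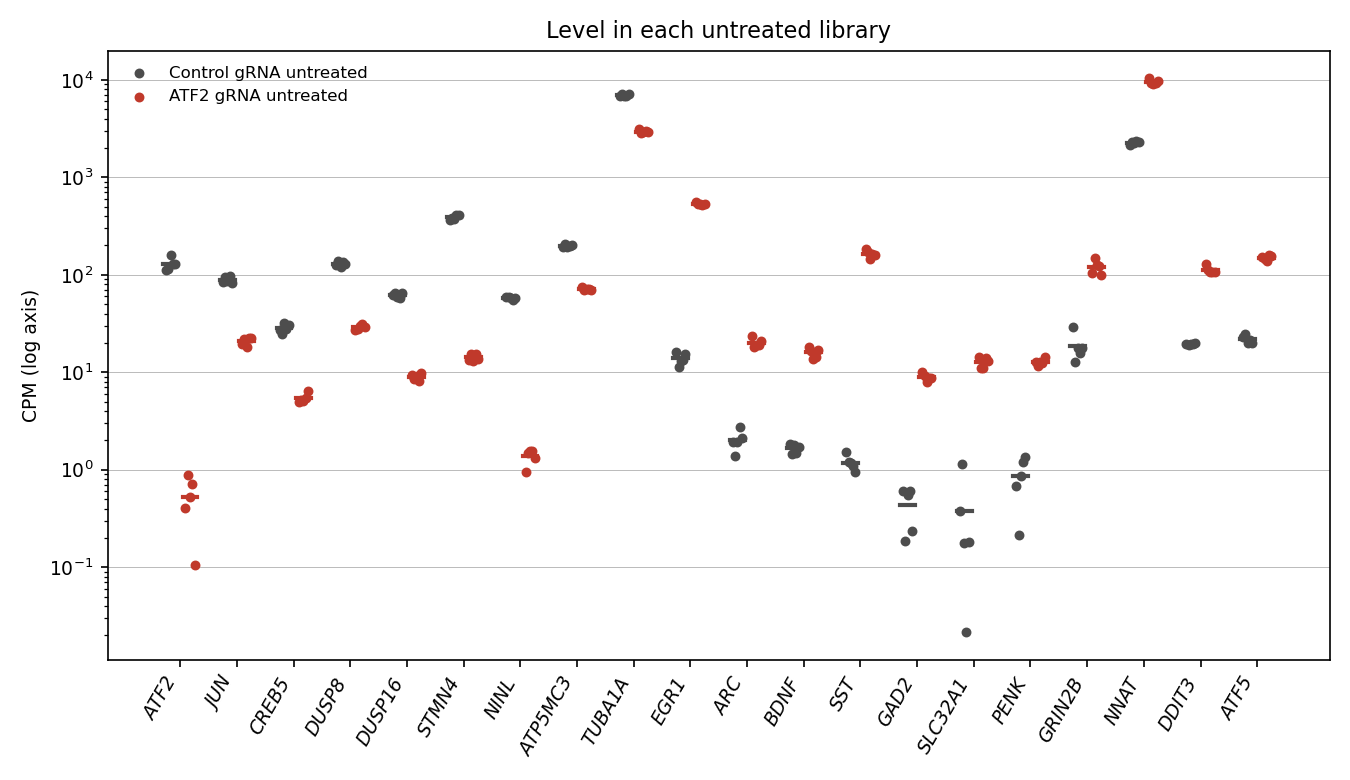
CPM on a log axis in each of the 5 Control gRNA (grey) and 5 ATF2 gRNA (red) untreated libraries for 20 genes described in the text, with bars at the means. For ATF2, JUN, CREB5, DUSP8, DUSP16, STMN4, NINL, ATP5MC3 and TUBA1A every red point lies below every grey point, and for the other 11 genes every red point lies above.

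Early response genes, which neurons transcribe within minutes of activity or growth factors, were more often higher than lower. Of 31 tested, 15 were higher and 2 lower, against 19.7% and 20.2% of all genes, with a median log2 fold change of 0.43. EGR1, a zinc finger factor, stood at 16.3, 11.4, 12.9, 13.3 and 15.3 CPM with Control gRNA and at 564, 535, 529, 522 and 528 CPM with ATF2 gRNA (5.27 ± 0.11, adjusted p = 9.33e-23). EGR2, of the same family, was at 0 in 3 Control gRNA libraries and at 0.178 and 0.0181 CPM in the others, and it stood at 13.7, 11.2, 11.1, 9.52 and 10.2 CPM with ATF2 gRNA (adjusted p = 2.98e-15). EGR3 had 0 to 3 counts in each Control gRNA library and 41 to 83 in each ATF2 gRNA library. EGR2 and EGR3 thus had few or no counts with Control gRNA.

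ARC, which controls receptor traffic at synapses, stood at 1.93, 1.38, 1.92, 2.77 and 2.12 CPM with Control gRNA and at 23.4, 18.2, 19.1, 19.1 and 20.9 CPM with ATF2 gRNA (3.31 ± 0.15). BDNF, a neurotrophin, stood at 1.83, 1.46, 1.81, 1.49 and 1.72 CPM with Control gRNA and at 18.1, 16.7, 13.6, 14.4 and 17.0 CPM with ATF2 gRNA (3.25 ± 0.13). The means were 9.95-fold apart for ARC and 9.61-fold apart for BDNF, with no overlap for either. IER5 (2.16 ± 0.069), KLF10 (2.01 ± 0.092), IER2 (1.92 ± 0.059) and the orphan nuclear receptor NR4A1 (1.66 ± 0.21) also rose. BTG2 (-0.95 ± 0.072) and KLF6 (-0.78 ± 0.064) were the only members that fell in this comparison, and ZFP36, SRF and PER1 were not called. FOS, counted with the AP-1 factors, stood at 5.91 CPM with ATF2 gRNA.

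In the BCL2 family, which governs the mitochondrial step of apoptosis, 6 of 15 tested members were higher and 3 lower. These shares were 40% and 20%, against 19.7% and 20.2% of all genes, so the share of lower members was near that of all genes. The protective BCL2 stood at 10.3, 9.71, 11.1, 11.5 and 11.0 CPM with Control gRNA and at 4.17, 5.34, 6.19, 4.69 and 5.85 CPM with ATF2 gRNA (-1.03 ± 0.13, adjusted p = 3.54e-09). HRK, a neuronal BH3-only killer protein long linked to JUN, stood at 64.2, 66.4, 55.6, 62.6 and 65.1 CPM with Control gRNA and at 44.1, 41.7, 42.3, 44.3 and 39.2 CPM with ATF2 gRNA (-0.57 ± 0.052, adjusted p = 9.10e-13). Both were lower in every ATF2 gRNA library. The killer genes BIK (2.11 ± 0.46), BBC3 (0.93 ± 0.093) and PMAIP1 (0.70 ± 0.14) rose, as did the protective MCL1 (0.43 ± 0.035) and BCL2L1 (0.30 ± 0.045). BCL2L11 (BIM), BAX and BAD were not called. The members that moved thus held both death-promoting and protective genes in each direction.

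Genes of the integrated stress response and p53 targets were more often higher than lower, against 19.7% and 20.2% of all genes. Of 16 integrated stress response genes, 10 were higher and 1, ATF4 itself (-0.14 ± 0.036), lower. TRIB3, a pseudokinase downstream of DDIT3, stood at 19.2 ± 0.521 and 66.7 ± 2.15 CPM (1.80 ± 0.065), and SESN2 rose by 0.75 ± 0.055, whereas ASNS, PHGDH and PSAT1, enzymes of amino acid synthesis, were not called. Of 18 p53 targets, 11 were higher and 2 lower. CDKN1A (p21) stood at 15.2, 21.8, 14.8, 16.8 and 13.4 CPM with Control gRNA and at 73.9, 66.2, 66.5, 66.2 and 67.8 CPM with ATF2 gRNA (2.06 ± 0.081). GDF15, a stress cytokine, rose from 0.214 ± 0.0619 to 8.33 ± 0.963 CPM (5.28 ± 0.32), and the death receptors FAS (2.73 ± 0.48) and TNFRSF10B (1.56 ± 0.063) rose too. MDM2, BAX, TIGAR and POLH were not called. Among ER chaperones and unfolded protein response genes 10 of 18 were higher and 0 lower, none of them by 2-fold, with HSP90B1 at 0.59 ± 0.044 and HSPA5 (BiP) at 0.29 ± 0.039.

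Of 13 tested genes that are reported as ATF2 targets in other cells, 5 were lower and 5 higher, against 20.2% and 19.7% of all genes. JUN, CCND1 (cyclin D1, -0.68 ± 0.14), MMP2 (-0.61 ± 0.065), HRK and DUSP1 were the lower ones. TGFB2 (0.72 ± 0.16), DUSP10 (0.40 ± 0.060), HSPA5, ATF3 and DDIT3 were the higher ones, and GADD45A was not called (0.057 ± 0.065).

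Axon injury and regeneration genes were more often lower than higher. Of 17 tested, 11 were lower (64.7%) and 4 higher (23.5%), against 20.2% and 19.7% of all genes. STMN4, a stathmin that binds tubulin, stood at 368, 386, 375, 411 and 408 CPM with Control gRNA and at 13.5, 15.4, 12.9, 15.6 and 13.8 CPM with ATF2 gRNA (-4.77 ± 0.087, adjusted p = 3.60e-25). NMNAT2, the axonal enzyme that makes NAD and delays axon loss, stood at 478, 479, 484, 481 and 512 CPM with Control gRNA and at 251, 259.9, 255, 253 and 234 CPM with ATF2 gRNA (-0.96 ± 0.032). The groups of NMNAT2 did not overlap. GAP43 (-0.91 ± 0.031), CAP2 (-0.91 ± 0.051), STMN2 (-0.88 ± 0.032) and TUBB3 (-0.73 ± 0.12) fell as well, and SARM1, which acts against NMNAT2, fell by 0.29 (SE 0.044). TNFRSF12A (Fn14) rose from 2.19 ± 0.561 to 26.0 ± 1.15 CPM (3.58 ± 0.12).

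The genes of highest CPM among those that fell by at least 2-fold were TUBA1A, ACTG1, TUBB, DPYSL3 and SEZ6L, of which the first 4 encode parts of the cytoskeleton or growth cone. TUBA1A, an alpha tubulin of young neurons, stood at 6774, 7109.8, 6871, 6902 and 7178 CPM with Control gRNA and at 3103, 2822, 2898, 2969 and 2931 CPM with ATF2 gRNA (-1.24 ± 0.047, adjusted p = 1.20e-19). TUBB fell by 1.08 (SE 0.041), ACTG1 (gamma actin) by 1.07 (SE 0.056) and DPYSL3 (CRMP4, a growth cone protein) by 1.11 (SE 0.028). SEZ6L, a neuronal surface protein, went from 1014 ± 23.7 to 281 ± 4.36 CPM (-1.85 ± 0.039). At the other end, NNAT (neuronatin, an imprinted proteolipid) stood at 2128, 2325, 2236, 2335 and 2324 CPM with Control gRNA and at 10339.8, 9298, 9036, 9381 and 9772 CPM with ATF2 gRNA (2.08 ± 0.034, adjusted p = 1.33e-37). NNAT had the highest mean CPM with ATF2 gRNA of all genes called higher by at least 2-fold, a ranking that does not correct for gene length. ASS1, an enzyme of arginine synthesis, rose by 1.62 ± 0.041, LRRN1 by 1.18 ± 0.031 and the nicotinic receptor gene CHRNA3 by 1.32 ± 0.032.

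The 12 genes with the largest falls, among genes of at least moderate level, were of mixed function. NINL, a centrosomal protein that anchors microtubules, stood at 59.5, 59.3, 58.0, 54.7 and 57.5 CPM with Control gRNA and at 0.953, 1.49, 1.56, 1.55 and 1.33 CPM with ATF2 gRNA (-5.37 ± 0.077, adjusted p = 2.02e-42). C1RL, a complement protease, went from 9.85 ± 1.33 to 0.182 ± 0.128 CPM (-5.77 ± 0.22), and the giant cadherin FAT2 from 6.57 ± 1.03 to 0.266 ± 0.137 CPM (-4.62 ± 0.27). SFRP4, a secreted Wnt inhibitor (-4.60 ± 0.55), KRTAP5-AS1, an antisense RNA (-4.15 ± 0.094), CNGA3, a cyclic nucleotide-gated channel (-3.73 ± 0.13), CLDN6, a tight junction protein (-3.41 ± 0.21), PPP1R1B (DARPP-32, -3.30 ± 0.21), CYGB (cytoglobin, -2.97 ± 0.19) and A4GALT, a glycolipid enzyme (-2.81 ± 0.18), complete these 12 with ATF2 and STMN4. The absence of overlap between groups was part of the rule that named them.

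The largest rises included genes of inhibitory and peptide transmission that were low with Control gRNA. SST, the neuropeptide somatostatin (ENSG00000157005.3, chromosome 3, 187668906 to 187670399), stood at 1.54, 1.19, 1.17, 1.08 and 0.943 CPM with Control gRNA and at 184, 171, 146, 165 and 161 CPM with ATF2 gRNA (7.13 ± 0.17, adjusted p = 1.95e-22). SLC32A1, the transporter that loads GABA into vesicles, stood at 0.374, 1.14, 0.178, 0.0216 and 0.181 CPM with Control gRNA and at 14.2, 11.0, 11.2, 14.0 and 13.1 CPM with ATF2 gRNA (5.19 ± 0.39). GAD2, a GABA-making enzyme, stood at 0.602, 0.185, 0.547, 0.606 and 0.236 CPM with Control gRNA and at 9.96, 9.07, 7.87, 8.69 and 8.81 CPM with ATF2 gRNA (4.32 ± 0.27). GAD1, which encodes the other GABA-making enzyme, rose from 0.248 ± 0.251 to 2.73 ± 0.448 CPM. The glutamate transporter genes changed little, SLC17A6 by 0.36 ± 0.048 at a mean of 299.6 CPM and SLC17A7 by 0.12 ± 0.037. Among monoamine genes, SLC18A2, the vesicular monoamine transporter, changed by -1.29 ± 0.12 and SLC6A3, the dopamine transporter, by -1.42 ± 0.19, while TPH2, an enzyme of serotonin synthesis, rose by 2.43 ± 0.73. SLC6A2 and DBH were called lower from Control gRNA means of 0.183 and 0.304 CPM, and the call was lost in 3 of 16 alternatives for SLC6A2 and in 9 of 17 for DBH. Several transmitter identity genes had means under 1 CPM with Control gRNA, so counts for this list depend on the filter. Of the 15 tested 8 were higher and 5 lower, against 19.7% and 20.2% of all genes. With a filter at a mean of 1 CPM, 6 of 10 tested were higher and 3 lower. With the main filter, the lower ones were 2 without Control gRNA replicate 3 and 3 without Control gRNA replicate 5 or ATF2 gRNA replicate 1, 2 or 5.

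Neuropeptides and granins followed, with 12 of 21 tested higher and 4 lower (19.0%), against 19.7% and 20.2% of all genes, and a median of 0.89. With a filter at a mean of 1 CPM, 10 of 14 tested were higher and 3 lower. PENK, the precursor of enkephalins, rose from 0.861 ± 0.450 to 12.8 ± 0.969 CPM (3.87 ± 0.28) and NXPH1, a secreted neurexin ligand, from 3.35 ± 0.605 to 46.5 ± 1.86 CPM (3.78 ± 0.10). TAC1 (1.36 ± 0.13) and NMU (2.30 ± 0.70) rose, while the granin genes split, SCG2 and CHGB higher (0.83 ± 0.035 and 0.21 ± 0.037) and SCG3 and CHGA lower (-1.06 ± 0.047 and -0.86 ± 0.036). The remaining genes at the top of the rises were SSTR3, a somatostatin receptor (4.94 ± 0.17), CALCR, the calcitonin receptor (5.22 ± 0.36), SLC30A3, the vesicular zinc transporter (4.89 ± 0.35), the melatonin-related receptor GPR50 (30.3 ± 3.99 to 794 ± 15.4 CPM, 4.72 ± 0.10), SERTM2, and the non-coding genes AC091951.1 and AC097468.1. AC097468.1 had at most 1 count in any Control gRNA library and 220 to 409 counts per ATF2 gRNA library. SERTM2 had 0 to 6 counts per Control gRNA library and 312 to 578 per ATF2 gRNA library.

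Receptors for fast transmitters were called in both directions. The shares over all genes were 19.7% higher, 5.48% by at least 2-fold, and 20.2% lower, 3.09% by at least 2-fold. Of 58 glutamate, GABA, glycine and nicotinic receptor genes tested, 22 were higher, 17 of them by 2-fold or more, and 18 were lower, 10 of them by 2-fold or more. These shares are in part set by the filter. GABRR1 had 0 to 3 counts per Control gRNA library and 16 to 85 with ATF2 gRNA, and CHRNA2 had 32 to 73 and 0 to 8. With a filter at a mean of 1 CPM, 19 of 43 tested were higher and 16 lower. GRIN2B, the NMDA receptor subunit of young neurons, stood at 28.9, 12.7, 17.6, 15.9 and 17.5 CPM with Control gRNA and at 103, 148, 125, 122 and 98.8 CPM with ATF2 gRNA (2.69 ± 0.18, adjusted p = 3.08e-12). GRIA2, the AMPA receptor subunit that limits calcium entry, stood at 33.0, 28.7, 41.8, 34.8 and 35.3 CPM with Control gRNA and at 130.4, 171, 167, 153 and 168 CPM with ATF2 gRNA (2.18 ± 0.12). GRIN1, the obligatory NMDA receptor subunit, rose by 1.89 ± 0.19, whereas GRIN2A fell by 1.30 (SE 0.12) and GRIN2D was at -1.01 ± 0.10. The GABA-A receptor subunit genes GABRB2 (3.32 ± 0.51) and GABRG3 (3.33 ± 0.23) rose from Control gRNA means of 0.163 and 1.25 CPM, and GABRA3 and GABRA5 fell (-0.90 ± 0.076 and -0.86 ± 0.20).

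Within the nicotinic receptors, CHRNB3 stood at 53.3, 57.6, 55.8, 57.4 and 56.2 CPM with Control gRNA and at 10.8, 12.9, 15.9, 12.8 and 13.4 CPM with ATF2 gRNA (-2.09 ± 0.076). CHRNA4, a main subunit of the brain receptor, stood at 81.5, 94.6, 78.5, 76.7 and 76.2 CPM with Control gRNA and at 20.2, 20.3, 21.5, 21.6 and 20.0 CPM with ATF2 gRNA (-1.97 ± 0.077). Both were lower in every ATF2 gRNA library, as was CHRNA2. The neighbouring cluster genes CHRNA3 (1.32 ± 0.032), CHRNA5 (1.09 ± 0.042) and CHRNB4 (0.77 ± 0.042), which form the ganglionic receptor, rose together with CHRNA7 (1.27 ± 0.090).

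The machinery of synaptic release was lower across most of its list, with 28 of 43 genes lower and 4 higher. This compares with 20.2% and 19.7% of all genes, and the median was -0.35. The falls were mostly under 2-fold. SYNGR3 (synaptogyrin 3) changed from 86.3 ± 4.57 to 25.7 ± 1.96 CPM (-1.75 ± 0.053), SYT2, a fast calcium sensor, from 315 ± 11.3 to 143 ± 6.10 CPM (-1.14 ± 0.045), and UNC13C, a priming factor, by -2.10 ± 0.30. The SNARE genes STX1A (-0.82 ± 0.055), VAMP2 (-0.33 ± 0.029) and SNAP25 (-0.23 ± 0.035) were lower by less. SV2C (1.79 ± 0.20), CPLX2 (0.97 ± 0.033), SYT5 and SYT1 were the 4 that rose, and SYP, RIMS1 and PCLO were not called.

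Voltage-gated channels were lower for 35 of 78 genes (44.9%) and higher for 19 (24.4%), against 20.2% and 19.7% of all genes. CACNA1E, the R-type calcium channel, went from 73.3 ± 7.76 to 24.2 ± 2.97 CPM (-1.60 ± 0.087), and the T-type channel genes CACNA1I (-1.70 ± 0.23) and CACNA1G (-1.22 ± 0.31) and the potassium channel gene KCNC4 (-1.37 ± 0.11) fell too. KCNA1 was the largest rise of the list, from 0.0820 to 2.58 CPM (5.16 ± 0.49), with SCN7A at 2.12 ± 0.16. The sodium channel genes SCN1A, SCN2A, SCN3A and SCN8A were not called, with log2 fold changes from 0.081 for SCN1A to 0.19 for SCN3A.

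Cholesterol synthesis had the largest share of tested members called in 1 direction among the 22 lists, with 22 of 24 genes lower and 1 higher, against 20.2% and 19.7% of all genes. The changes were modest, with a median of -0.46 and none of 2-fold. ACAT2 stood at 451, 426, 406, 399 and 418 CPM with Control gRNA and at 250.4, 229, 231, 231 and 220.1 CPM with ATF2 gRNA (-0.85 ± 0.065). FDPS, the farnesyl diphosphate synthase, stood at 283, 275, 252, 267 and 272 CPM with Control gRNA and at 169.8, 140.3, 149.5, 162 and 156 CPM with ATF2 gRNA (-0.80 ± 0.059). The groups were apart for both genes. HMGCS1 fell by 0.56 (SE 0.049), the regulator SREBF2 was lower (-0.48 ± 0.035), CYP51A1 was not called and STARD4 was higher (0.38 ± 0.11).

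**Figure D3:**
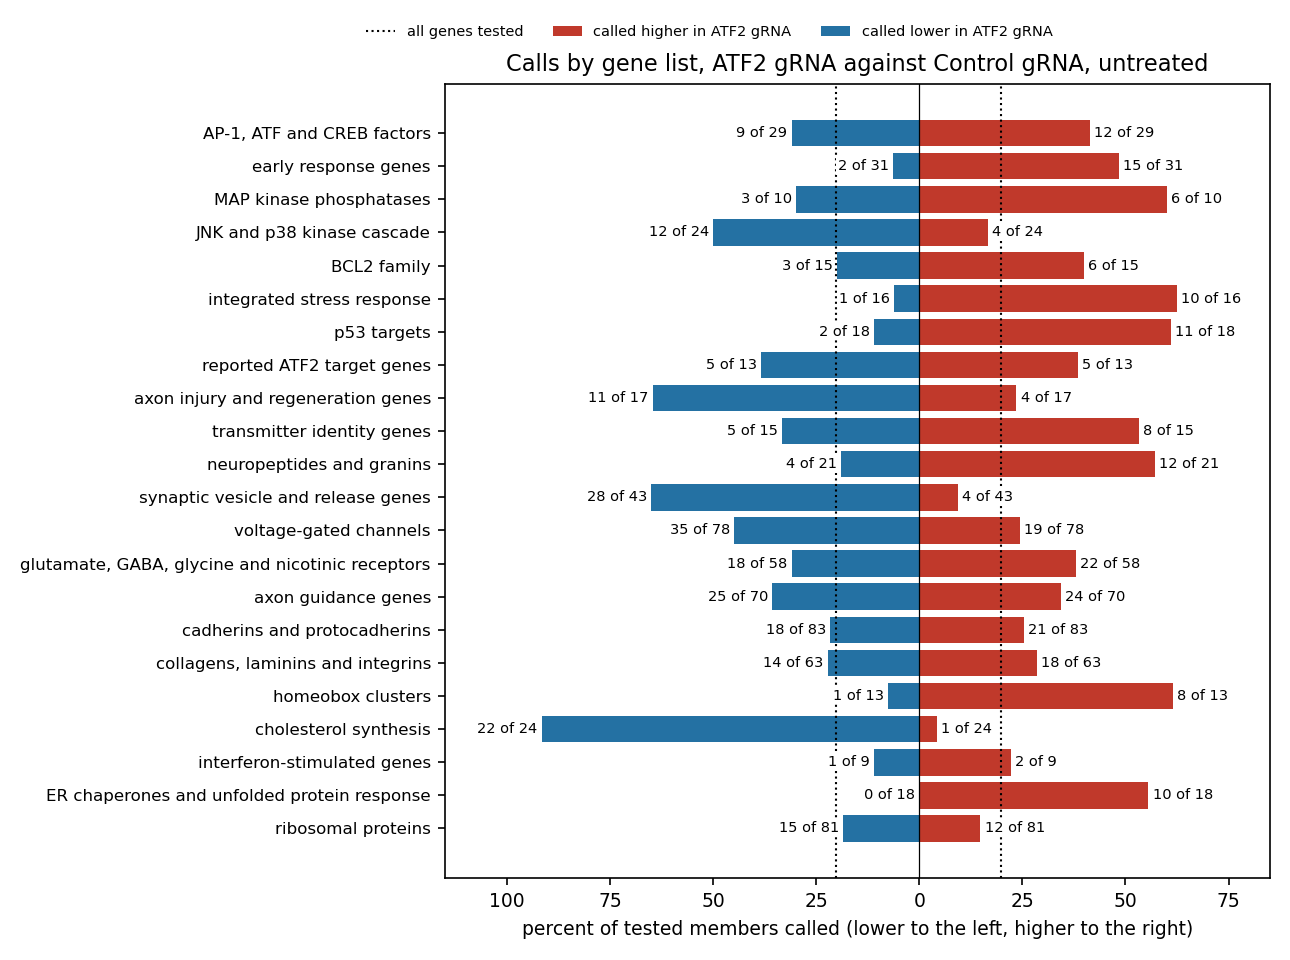
Percent of the tested members of each gene list called lower (blue, left) and higher (red, right) in untreated ATF2 gRNA against Control gRNA, with the counts beside each bar and dotted lines at the shares over all genes tested (20.2% and 19.7%). Cholesterol synthesis (22 of 24) and synaptic release (28 of 43) reach far to the left, and integrated stress response (10 of 16) and p53 targets (11 of 18) far to the right. The homeobox bar (8 of 13) holds genes with almost no counts with Control gRNA, so its share is in part set by the filter on low counts. The receptor and early response lists also hold such genes.

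Adhesion, guidance and matrix genes showed no common direction. Axon guidance genes were higher for 24 and lower for 25 of 70, with UNC5B (2.04 ± 0.075), SEMA3C (1.98 ± 0.091) and EPHA6 (2.18 ± 0.22) among the rises and NTNG2 (-2.61 ± 0.13), EFNA3 and SLIT2 among the falls. Cadherins and protocadherins were higher for 21 (25.3%) and lower for 18 (21.7%) of 83, near the 19.7% and 20.2% of all genes. Collagens, laminins and integrins were higher for 18 (28.6%) and lower for 14 (22.2%) of 63. Ribosomal protein genes were called slightly less often than all genes, at 12 higher (14.8%) and 15 lower (18.5%) of 81, with a median of -0.0024. These counts turned with 1 library, to 9 and 24 without ATF2 gRNA replicate 1 and to 15 and 9 without ATF2 gRNA replicate 3. Interferon-stimulated genes, of which 9 could be tested, were higher for 2 and lower for 1, with 1 higher without ATF2 gRNA replicate 3 or 5 or Control gRNA replicate 1 or 4, and ISG15 was not called.

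Markers of other cell types moved with these changes in part, and their counts stand against 19.7% higher and 20.2% lower among all genes. Neural progenitor markers were higher for 6 of 10 and lower for 2, yet their summed level was lower, 1332 to 1424 CPM with Control gRNA and 772 to 846 CPM with ATF2 gRNA, since NES, which makes up most of it, fell by 0.79 (SE 0.035). HES1, a target of Notch signalling, rose from a mean of 0.0704 to 1.35 CPM. With 2 to 5 counts per Control gRNA library, HES1 could pass the filter only through groups where it was higher. The progenitor count is thus in part set by the filter. With a filter at a mean of 1 CPM, 3 of 7 tested progenitor markers were higher and 2 lower. Pluripotency markers summed to 51.1 to 54.8 and 78.4 to 92.2 CPM with 3 of 7 higher, LIN28A among them (1.96 ± 0.14), and POU5F1, the defining gene, stood at 0.396 and 0.368 CPM and was not called. Mesenchymal markers summed to 8.44 to 9.80 and 13.6 to 15.5 CPM, glial markers to 15.1 to 18.6 and 13.5 to 19.2 CPM with GFAP, MOG and SOX10 below the filter, and markers of dividing cells to 24.1 to 27.0 and 17.7 to 24.5 CPM with 0 of 10 higher. Mitochondrial transcripts took 5.98% to 6.31% of counts with Control gRNA and 5.07% to 5.73% with ATF2 gRNA. The part of these shifts in the other results was not tested.

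The same guide was also compared with Control gRNA in 9 other libraries, those treated with vincristine. In that comparison 42.4% of genes were called, and 19.4% were higher and 23.0% lower. Of the 4090 genes higher in untreated neurons, 2463 (60.2%) were called higher there and 211 lower. Of the 4191 lower genes, 2837 (67.7%) were called lower there and 198 higher. For the 641 genes lower by at least 2-fold untreated, 537 were called lower and 0 higher, and for the 1137 higher by at least 2-fold, 748 were called higher and 29 lower. The 2 comparisons share no library, but they share the guide and the cell line.

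For some genes the size depended on the drug, tested as the difference of the ATF2 gRNA effect between vincristine and untreated neurons, for which 20.6% of all genes were called. EGR1 was 5.27 above Control gRNA untreated and 2.48 with vincristine (difference -2.79, adjusted p = 6.69e-14), and GPR50 was 4.72 and 1.71. JUN was -2.08 and -3.53 (difference -1.46, adjusted p = 1.14e-08), HRK -0.57 and -2.40 (adjusted p = 2.61e-23), and ATF3 0.20 and -2.81 (adjusted p = 1.68e-24). The differences for NINL (-0.30), BDNF (-0.16) and ATF2 itself (-0.083) were not called. ABCB1, a drug efflux pump that can export vincristine, changed direction. It stood at 0.478, 0.661, 0.696, 0.909 and 0.888 CPM with Control gRNA and at 7.44, 6.97, 6.68, 6.96 and 7.48 CPM with ATF2 gRNA when untreated (3.28 ± 0.25), and at -2.35 on the log2 scale with vincristine (difference -5.63, adjusted p = 1.04e-13), with the libraries of both groups apart in each condition.

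**Figure D4:**
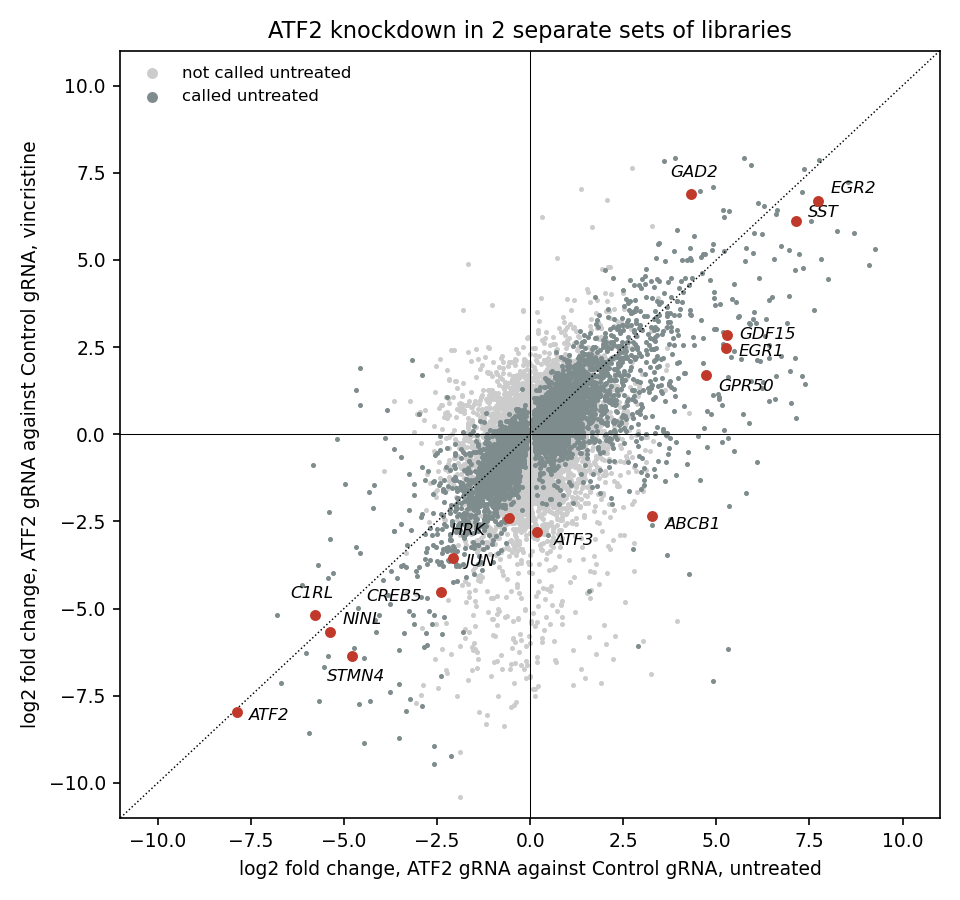
Log2 fold change of ATF2 gRNA against Control gRNA in untreated libraries (horizontal) and in vincristine libraries (vertical) for the 20759 genes tested, with genes called untreated in dark grey, the named genes in red and a dotted line where both values are equal. ATF2, NINL and C1RL lie near the line, and ABCB1 lies in the lower right part at 3.28 and -2.35. Values of genes with almost no counts in a group are fitted values that set no size.

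Vincristine itself moved part of these genes in WT neurons of the separate experiment. Of the higher genes 3700 were also tested in WT, where 876 (23.7%) were called higher and 564 (15.2%) lower, against 16.3% and 15.4% of all genes tested in both. Of 4082 lower genes, 1048 (25.7%) were lower with vincristine in WT and 596 (14.6%) higher. Among the genes lower by at least 2-fold with ATF2 gRNA, 111 of 538 (20.6%) were lower and 119 (22.1%) higher in WT. Among those higher by at least 2-fold, 207 of 755 (27.4%) were higher and 104 (13.8%) lower. Several of the genes above responded there. EGR1 rose with vincristine in WT by 4.01 and DDIT3 by 3.14, in the direction that ATF2 gRNA gave untreated. JUN (1.86), DUSP16 (2.41), CREB5 (2.58) and HRK (2.98) rose with vincristine in WT, the direction opposite to that of ATF2 gRNA.

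A gRNA against JUN was present in untreated libraries of the same experiment. Its comparison with Control gRNA shares those libraries with the comparison above, so values are given side by side. The direct test is ATF2 gRNA against JUN gRNA, which uses the same ATF2 gRNA libraries as above and is no independent check, and in which 34.8% of genes were called, 16.5% higher and 18.2% lower. Against Control gRNA, 11.2% of genes were called with JUN gRNA. JUN was lowered more by its own guide, with -4.96 against Control gRNA, so that it was 2.89 higher with ATF2 gRNA than with JUN gRNA (adjusted p = 1.76e-17).

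STMN4 was at -4.77 with ATF2 gRNA and 0.087 with JUN gRNA (direct difference -4.86, adjusted p = 3.66e-25), NINL at -5.37 and -0.079 (direct difference -5.29), and DUSP8 at -2.16 and 0.0012 (direct difference -2.16). DUSP16 was lower with both guides, at -2.77 and -0.72, and further with ATF2 gRNA (direct difference -2.05, adjusted p = 2.27e-23). MAFF was called in opposite directions, at -2.40 with ATF2 gRNA and 1.03 with JUN gRNA. HRK was at -0.57 and -0.83 (direct difference 0.26, adjusted p = 6.14e-05), lower with JUN gRNA. Among the genes that rose, BDNF was at 3.25 and 0.044, GAD2 at 4.32 and 0.19, SST at 7.13 and 0.80, and EGR1 at 5.27 and 1.50, all called in the direct test. SFRP4 and SLC6A3 were lower with both guides (-4.60 and -3.57, -1.42 and -1.42), and their direct differences were not called (-1.03, adjusted p = 0.300, and -0.0032, adjusted p = 0.993).

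**Figure D5:**
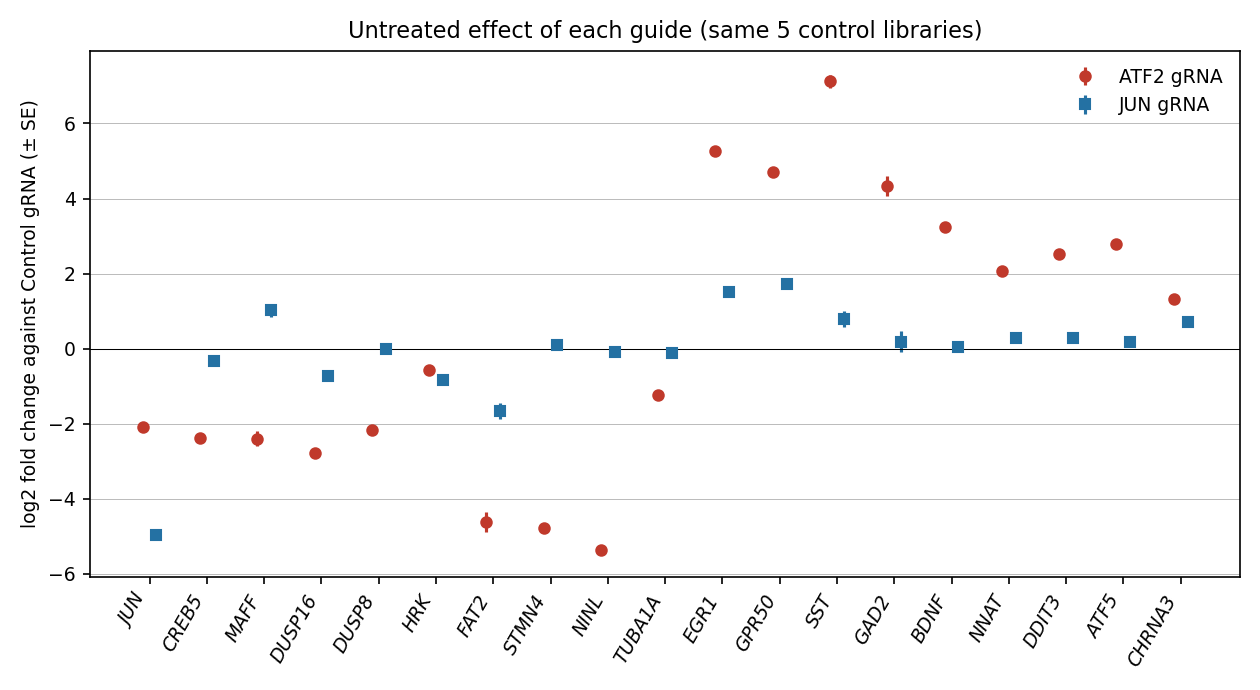
Log2 fold change (with SE) against the same 5 Control gRNA libraries for untreated ATF2 gRNA (red circles) and JUN gRNA (blue squares), for genes described in the text. JUN lies at -2.08 and -4.96, while STMN4, NINL, DUSP8 and BDNF are far from 0 with ATF2 gRNA and between -0.079 and 0.087 with JUN gRNA.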

How the data were processed

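Poly(A) RNA was sequenced from stranded libraries, per the labels' protocols. The authors deposited whole-number read counts per gene, made with cutadapt 3.4, STAR and featureCounts of Subread 2.0.1 on GRCh38, per the submitters' processing notes. The deposited counts came from duplicate-marked alignments, per the file headers. Neither the strand option of the counting nor the handling of marked duplicates is given in the sources used here. Of 58440 identifiers 58320 were matched to a symbol and 56992 had the same version and start in GENCODE 29, and 0 count columns were unmatched.

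The 29 libraries of the experiment entered 1 fit of 6 group means in edgeR 4.0.16 (R 4.3.3), with the default expression filter by group, TMM factors and a robust quasi-likelihood test, adjusted by Benjamini-Hochberg over 20759 genes with a threshold of 0.05. SE is the absolute log2 fold change over the square root of F. CPM had no prior count added. WT libraries were fitted apart with the other groups of their experiment. Tables were written with pandas 2.3.3 and drawn with matplotlib 3.10.9 in Python 3.11.15. Tested on simulated data for the untreated comparison, the script called 163 of 188 tested genes changed 2-fold (86.7%) among 19410 genes, with 4 false calls, and made 0 calls among 19367 genes when none was changed. The simulation gave every gene the same dispersion and changed only 200 genes. It checks the code, and its false-call count does not carry over to these data.

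Genes were named by rule: ATF2, its neighbours within 1 Mb, the 12 highest and 12 lowest called fold changes with an average log2 CPM of at least 1 and no overlap, the 5 most abundant called genes of at least 2-fold in each direction, members of 22 gene lists and 7 marker lists, and JUN, ATF3, ATF7, CREB5, MAP3K12, HRK, EGR1 and ABCB1. List members below 2-fold were in part picked for their role with values known. The comparison, lists and rule were chosen with earlier results of these data known. Alternatives were DESeq2 1.42.0, limma 3.58.1 voom, RLE factors, no filter or one at a mean of 1 CPM, a replicate block, a fit restricted to the 2 groups of a comparison and each library left out.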

Additional observations from a re-analysis of the deposited data

Results flagged for a closer look

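The effect of ATF2 gRNA differed between vincristine and untreated libraries for 23 of the 39 named genes other than ATF2 that were examined, by edgeR's test of the difference itself. Over all genes the share called was 20.6%, and most of the 39 were named for large or abundant untreated changes. The values below are the vincristine effect minus the untreated effect on the log2 scale. ABCB1 was the 1 gene whose libraries moved in opposite ways in the 2 conditions, with -5.63. Among the transcription factors the difference was -1.46 for JUN, -2.15 for CREB5, -3.00 for ATF3 and -2.79 for EGR1. The killer gene HRK differed by -1.83.

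Among genes that were higher untreated, the difference was -2.94 for AC097468.1, -1.02 for SST, -2.42 for GDF15, -1.03 for SSTR3, -3.00 for GPR50 and -0.34 for ASS1. LRRN1 (0.69), CHRNA3 (0.68) and NNAT (0.31) had a larger rise with vincristine. Among genes that were lower untreated, it was -1.59 for STMN4, -3.14 for SFRP4, -1.52 for KRTAP5-AS1, -0.83 for CYGB, -0.27 for SEZ6L, -0.33 for TUBB and -0.45 for TUBA1A, a further fall in each, and 0.14 for DPYSL3.

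In 80 groups of 5 libraries examined, 5 held a library far from the other 4 by Dixon's criterion, which chance meets in about 1 group in 20. Control gRNA replicate 3 was highest for EGR2 (0.178 CPM) and for PPP1R1B (11.0 CPM). Control gRNA replicate 4 was highest for GDF15 (0.325 CPM) and replicate 2 for SLC30A3 (0.820 CPM). ATF2 gRNA replicate 1 was lowest for ATF7 (26.3 CPM).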

How the results depend on the processing

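The number of genes called between untreated ATF2 gRNA and Control gRNA, 8281, was 7875 to 9442 over the other tools, factors and filters tried, with 8714 in DESeq2 and 9442 in limma voom. Leaving out 1 library at a time gave 7717 to 8184 for this comparison, 6687 to 6968 against JUN gRNA, 3797 to 4614 for the difference with vincristine, 8329 to 8585 within vincristine, 1627 to 2659 for JUN gRNA against Control gRNA and 4671 to 6050 for vincristine in WT. Fitting only the groups compared gave 3529 genes for vincristine in WT in place of 5498, from fewer libraries. Leaving out both libraries that stood apart was chosen after seeing the data.

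A replicate block gave 8152 calls. Correlations of same-numbered libraries were -0.0333, -0.122, 0.137, 0.0527 and 0.00239, with 1 of 5 over 0.1, and 2 of 5 ATF2 gRNA libraries correlated best with their own number, so the numbers were not taken to pair the cultures.

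Of 232 genes that were named by the rule above and called, 216 had the same direction and call under every alternative run. The other 16 lost the call under at least 1, and 0 reversed. Among them were COL16A1, PTHLH, SLC6A2, DDX58, COL9A1, DBH, CHRNA10, CACNG6, COL2A1, S100B, ATF3, TRH, HES5 and PCDHA2. HOXB13 and some other list members given with values in the text were outside these 232. Genes with a handful of counts in 1 group have fitted fold changes that depend on the prior count. All results come from 1 cell line and from bulk RNA.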

Other observations

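Homeobox genes of the HOX clusters, which are silent in forebrain neurons, were mostly below the filter, and of 13 tested 8 were higher with ATF2 gRNA and 1 lower. HOXB7, HOXB8, HOXB9 and HOXC13 had at most 10 counts in any Control gRNA library. Such genes could pass the filter only through groups where they were higher, so this share is in part set by the filter and is no result about the list. HOXB8 had 0 to 1 counts per Control gRNA library and 42 to 83 per ATF2 gRNA library. HOXB2 rose by 0.91 ± 0.073 from 23.2 ± 1.94 CPM, and HOXC13 was called at 3.15 ± 0.62 from a mean of 0.128 CPM. The 1 lower gene, HOXB13 (-0.62 ± 0.24), lost its call in some fits: 0 were lower with no filter, and 0 without ATF2 gRNA replicate 2, 3 or 5 or Control gRNA replicate 1 or 4. With a filter at a mean of 1 CPM, 3 of 5 tested were higher. EVX2, at the end of the HOXD cluster, had 0 to 2 and 82 to 139 counts per library.

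By gene type, protein-coding genes were called higher for 3437 and lower for 3866 of 14725 tested. Antisense genes were higher for 216 and lower for 77 of 1698, and lincRNA genes higher for 227 and lower for 103 of 1673. Both of these classes were called less often in either direction than all genes, at 19.7% higher and 20.2% lower. The strand option of the counting is not given, so antisense counts are uncertain. Over genes with an average log2 CPM of at least 2, median log2 fold changes per nuclear chromosome lay between -0.13 and 0.068, and that of the 16 mitochondrial genes was -0.33.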
